A study of Rattus norvegicus with 3 samples.

Results

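The genes described here encode the machinery that moves, docks and fuses membrane vesicles. They cover synaptotagmins, syntaxins, VAMPs, the Snap25 family, Golgi SNAREs, syntaxin-binding proteins, Nsf, Nsfl1c, synaptic vesicle proteins, complexins, priming factors and Rab proteins. Members were the probe sets whose single platform gene symbol began with one of the names of these families. That rule reads no intensity, but it was chosen with earlier results of these data known. The rule gave 116 probe sets for 83 genes, of 4736 genes with a single symbol on the array, and each gene was read from its brightest probe set. Of the 83 members, 27 had more than 1 probe set.

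Each of the 3 arrays held RNA of a rat sample with 1 time label of a time course, 0.0 h, 0.1 h or 1.0 h. The labels do not settle whether 0.1 h is a true time, so the arrays are named by their labels and values are given in label order. All 3 samples share the same source label, which names pineal gland and adrenal medulla together, and all were total RNA. No source used here gives the treatment, strain, age or number of animals, or which tissue a single sample came from. With 1 array per time label there was no replicate, so no difference below has a p-value or a standard error across samples. Precision is limited throughout by having 3 arrays.

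Vesicle fusion rests on SNARE proteins. A VAMP on the vesicle pairs with a syntaxin and a Snap25-type protein on the target membrane, Sec1/Munc18 proteins guide the pairing, and Nsf takes the used complexes apart. Synaptotagmins bind calcium and couple it to release, complexins and Unc13 proteins prepare vesicles, and Rab GTPases mark each compartment and recruit the factors that tether vesicles to it. Pinealocytes and chromaffin cells are both neuroendocrine cells, and chromaffin cells release catecholamines from granules by this machinery.

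The values below are array intensities on a linear scale after the arrays were brought to a common level. The 40th percentile of all values, 262.9, served as a floor, and a member was compared between 2 arrays where it lay above the floor on both. An intensity belongs to its own probe set, so levels are compared between arrays and not between genes. In bulk RNA, fewer cells of a type and less RNA per cell cannot be told apart.

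Of 7 pinealocyte markers on the array, 6, 7 and 7 were above the floor at 0.0 h, 0.1 h and 1.0 h. Of 7 chromaffin cell markers Chgb, Pnmt and Npy, or 3, were above it on each array, while Th, Dbh, Slc18a1 and Phox2a were below it on all 3. Pnmt, the enzyme that makes adrenaline, read 610.6, 656.8 and 514.7, and Th and Dbh, which act before it in that synthesis, read at most 202.1 and 101.7. The chromaffin markers were thus mixed, and how much adrenal medulla RNA each sample held was not settled by them. Of 5 adrenal cortex markers 1, 0 and 1 were above the floor, with sums of 732.7, 350.9 and 1004.4. The summed intensity of the pinealocyte list was 71573, 78280 and 58670 in label order, that of the chromaffin list, mostly Chgb, 66195, 62470 and 50108, and that of 8 central neuron markers 2340, 3391 and 2968, with 4, 5 and 3 of the 8 above the floor. Astrocyte, oligodendrocyte and Schwann cell, and erythroid lists had 4 of 5, 3 of 5 and 2 of 2 markers above the floor on every array. Of 4 endothelium markers 4, 2 and 3 were above it in label order, with sums of 3187, 2182 and 3020. The leukocyte list summed to 21477, 27733 and 10382, with Spp1 at 18254, 23183 and 6580. Of its other markers Ptprc, Lyz2 and Cd74 were higher at 1.0 h than at 0.0 h, and Cd4 was lower. The fibroblast and smooth muscle list summed to 37498, 25637 and 40664, with Col1a2 at 25564, 12176 and 23034. Col1a2 and Acta2 were lowest at 0.1 h, and Col1a1, Col3a1 and Dcn were not. Control probe sets at both ends of beta-actin gave 3' over 5' ratios, a sign of RNA quality, of 10.4, 17.8 and 44.4, and those of GAPDH 15.3, 18.6 and 14.1. The part of cell makeup and RNA quality in the differences below was not tested.

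Of the 83 members, 54 were above the floor at 0.0 h, 60 at 0.1 h and 54 at 1.0 h, or 65.1%, 72.3% and 65.1%. The shares over all 4736 genes were 67.6%, 68.7% and 69.6%. Above the floor on all 3 arrays were 50 of the 83 members, and 2916 of all 4736 genes. On none were 20 members, and on 1 or 2 arrays 13.

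**Figure D1:**
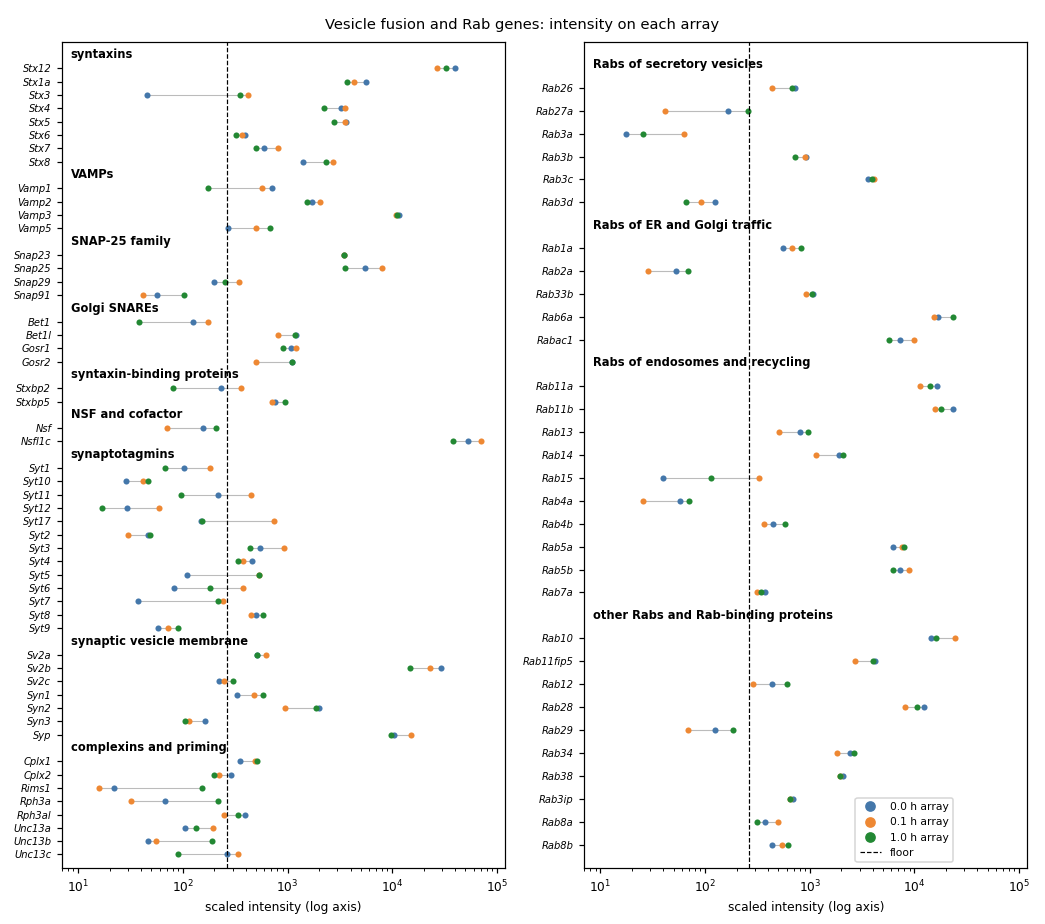
Scaled intensity (log axis) of each of the 83 members on the 0.0 h, 0.1 h and 1.0 h arrays, by role group. Each point is 1 array, a grey line joins the 3 arrays of a gene, and the dashed line is the floor of 262.9. Synaptotagmins lie mostly at or below the floor, and 7 of 8 syntaxins lie above it on all 3 arrays.

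Between 0.1 h and 0.0 h, 52 members were measured. None was at least 2-fold higher at 0.1 h, and Gosr2 and Syn2 were at least 2-fold lower. Of all 2993 genes measured in this comparison, 5.65% were higher by that factor and 4.71% lower, or 10.4% either way. The members' median log2 difference was -0.08, with values from -1.12 to 0.94, against a median of 0.00 over all genes. Their spread, scaled from the median absolute deviation, was 0.588, against 0.515 over all genes. It was 0.315 against 0.432 between 1.0 h and 0.0 h, and 0.572 against 0.556 between 1.0 h and 0.1 h. A difference of at least 1.5-fold either way was found for 11 members, or 21.2%, against 29.4% of all genes. That share was 11.8% against 21.2% between 1.0 h and 0.0 h, and 32.7% against 30.5% between 1.0 h and 0.1 h.

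Between 1.0 h and 0.0 h, 51 members were measured, and Vamp5 alone was at least 2-fold apart. It was higher at 1.0 h, and 2.41% of 3029 genes were higher by that much, while 2.61% were lower by that much, or 5.02% either way; no member was among the lower ones. The members' median log2 difference was -0.08, against 0.01 over all genes, with 19 members higher and 32 lower. After the arrays were aligned on the spike-in controls the median turned to 0.11, against 0.21 over all genes.

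Between 1.0 h and 0.1 h, Gosr2 and Rab12 were at least 2-fold higher and Snap25 and Syt3 at least 2-fold lower, of 52 measured members. Of 3042 genes 4.11% were higher by that factor and 5.03% lower, or 9.14% either way. The members' median log2 difference was 0.03, against 0.00 over all genes. Any 2 of the 3 comparisons share an array, so the error of that array enters both.

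**Figure D2:**
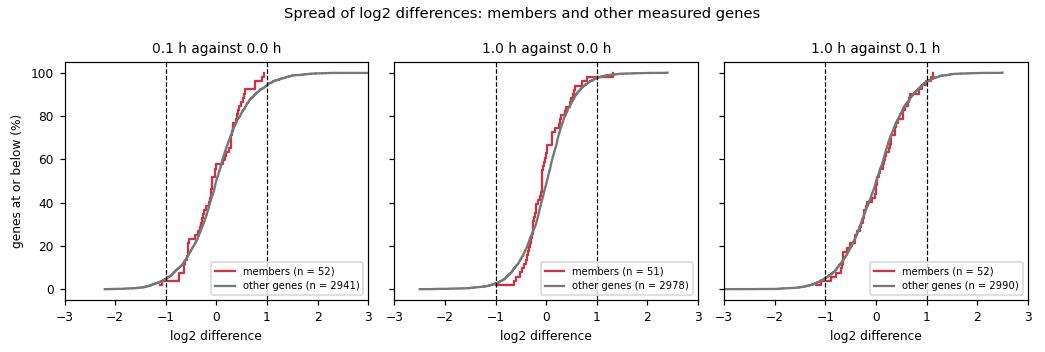
Share of genes (%) at or below each log2 difference, for the members (red) and the other measured genes (grey), in the 3 comparisons. Dashed lines mark 2-fold differences. The curves of members and other genes run close together, and 0, 1 and 2 members lie beyond the upper line.

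Syntaxins sit on the target membrane of a fusion step. Stx1a, the syntaxin of synaptic and granule release at the plasma membrane, read 5604, 4351 and 3702 in label order, and its log2 difference between 1.0 h and 0.0 h was -0.60. A second probe set read 285.6, 680.1 and 563.6. It gave a log2 difference of 0.98 for the same arrays, so the 2 readings of Stx1a go opposite ways.

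Stx8, a syntaxin of late endosomes, had 1415, 2717 and 2305. It was 1.92-fold higher at 0.1 h than at 0.0 h and 1.63-fold higher at 1.0 h than at 0.0 h. Its other probe set, with 287.8, 467.1 and 326.9, was also lowest at 0.0 h, with log2 differences of 0.70 and 0.18. Both Stx8 probe sets are named for the same sequence record.

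Stx4, of the plasma membrane, had 3211, 3510 and 2248, and Stx5, which acts between endoplasmic reticulum and Golgi, 3656, 3571 and 2758. Stx7, a partner of Stx8 on late endosomes, had 594.3, 804.3 and 497.9, and Stx12, of recycling endosomes, 39829, 27041 and 32435. Stx4, Stx5 and Stx7 were lowest at 1.0 h, and Stx12 at 0.1 h. Stx6, of the trans-Golgi network, had 391.7, 370.7 and 323.3. Stx3, a plasma membrane syntaxin of apical and sensory cell membranes, read 45.0, under the floor, at 0.0 h, then 422.2 and 352.2. It was at least 1.61-fold higher at 0.1 h and 1.34-fold higher at 1.0 h than at 0.0 h.

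Of the 7 syntaxins measured in both, 6 were lower at 1.0 h than at 0.0 h, with a median log2 difference of -0.30, and none was 2-fold apart. Of all genes measured in that comparison, 1480 of 3029 were lower. Read as the mean of all probe sets, 4 of 7 were lower, with a median of -0.26. Between 1.0 h and 0.1 h, 7 of 8 were lower at 1.0 h with a median of -0.25, where 1511 of 3042 genes were lower. That median turned to 0.22 when arrays were aligned on the spike-in controls, whose mean log2 difference between these arrays was -0.47 beforehand. The alignment raises every gene equally in this comparison, so the syntaxins keep their place among all genes.

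VAMPs are the vesicle SNAREs. Vamp5, first described in muscle cells, had 269.9, 501.4 and 674.4 in label order, and its 0.0 h value lay just above the floor. It was 1.86-fold higher at 0.1 h and 2.50-fold higher at 1.0 h than at 0.0 h. The summed intensity of 4 skeletal muscle markers was 392.6, 686.5 and 956.3 on the same arrays, with 0, 1 and 2 of the 4 above the floor. Among them Ckm, the muscle creatine kinase, read 146.7, 477.3 and 497.3, and Acta1 and Tnni2 were below the floor on all 3; the part of muscle RNA in the Vamp5 difference was not tested. The other Vamp5 probe set, with 182.1, 397.5 and 380.7, was below the floor at 0.0 h and above it on both other arrays. Both probe sets were therefore lowest at 0.0 h.

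Vamp2, the synaptobrevin of regulated release, had 1700, 2034 and 1525 on its brightest probe set and 1731, 1553 and 1530 on its other one. Neither was 1.5-fold apart between any 2 arrays, and the probe sets differed in sign between 0.1 h and 0.0 h. Vamp3, the cellubrevin of recycling endosomes, had 11695, 10829 and 11042 and was nearly level. Vamp1, the other synaptobrevin, had 709.5 and 575.3 on the first 2 arrays and 172.2, below the floor, at 1.0 h, which makes it at least 2.70-fold lower at 1.0 h than at 0.0 h. Another Vamp1 probe set read 138.0, 321.9 and 119.7, above the floor at 0.1 h alone. Of 442 genes above the floor on 1 of these 2 arrays, 3.39% had a bound of at least 2-fold lower.

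The Snap25 family supplies a further SNARE of the complex. Snap25, of neurons and neuroendocrine cells, had 5477, 8065 and 3544 on its brightest probe set. It was 2.28-fold lower at 1.0 h than at 0.1 h. A second bright probe set, named for the same sequence record, read 5046, 5861 and 4969, a log2 difference of -0.24 between those arrays, and another read 226.2, 418.1 and 831.0, a log2 difference of 0.99 the other way. The fourth was below the floor at 0.1 h and 1.0 h, with 251.2 and 186.3. The 2-fold difference of Snap25 was thus carried by 1 of its 4 probe sets, and the mean over them gave -0.22.

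Snap23, the family member of most non-neuronal cells, had 3486, 3486 and 3453, the most level reading among the SNAREs, and 238.6, 440.9 and 412.5 on its other probe set. Snap29, which acts on several internal membranes, was above the floor at 0.1 h alone, with 200.3, 340.3 and 254.1. Snap91, a clathrin assembly protein that the name rule also takes in, lay below the floor throughout, with 56.6, 42.0 and 102.4.

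**Figure D3:**
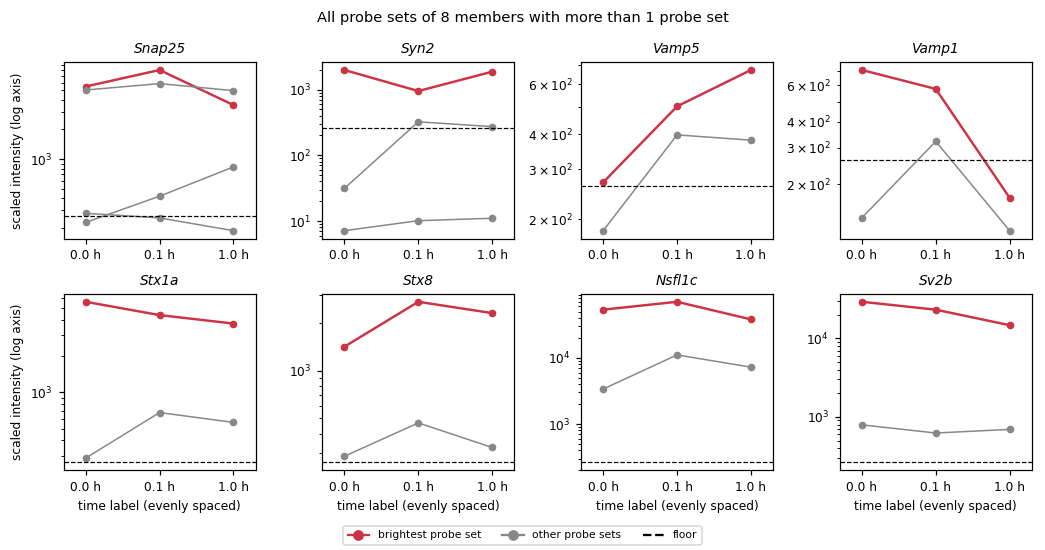
Scaled intensity (log axis) of every probe set of 8 members on the 0.0 h, 0.1 h and 1.0 h arrays, the brightest in red and the others in grey; the dashed line is the floor, and the 8 were chosen after their values were seen. The brightest Stx1a probe set is highest at 0.0 h with 5604 while its other one is lowest there with 285.6, and both Stx8 probe sets are lowest at 0.0 h.

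Golgi SNAREs act in traffic between endoplasmic reticulum and Golgi and within the Golgi stack. Gosr2 had 1094, 504.9 and 1106 from its 1 probe set. It was 2.17-fold lower at 0.1 h than at 0.0 h and 2.19-fold higher at 1.0 h than at 0.1 h, and so stood at the same level on the outer arrays. Of the 50 members measured on all 3 arrays it was the only one with an array 2-fold apart from both others. The 0.1 h array was that far below both others for 2.33% of 2916 genes and that far above for 1.58%. For the 1.0 h array the shares were 1.3% below and 0.309% above, and for the 0.0 h array 1.13% below and 0.343% above. Bet1l had 1207, 818.4 and 1188, also lowest at 0.1 h. Gosr1 had 1070, 1203 and 896.8, and Bet1 never passed the floor, with 126.1, 174.6 and 38.5.

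Over the 20 members of these 4 SNARE groups, Snap91 counted among them, 15 were measured between 1.0 h and 0.0 h, of which 12 were lower at 1.0 h, with a median log2 difference of -0.26, against 1480 of 3029 genes. When arrays were aligned on the spike-in controls 8 of 15 were lower, where the median of all genes was 0.21. On the mean of all probe sets 7 of 13 were lower, where that median was 0.02. Between 0.1 h and 0.0 h 8 of 16 were higher, Snap23 by under 0.01 on the log2 scale, and 8 lower. These counts were 4 and 12 when arrays were aligned on the spike-in controls, which moved the median of all genes to -0.28. They were 10 and 4 with probe sets averaged, where that median was 0.03.

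Among regulators of the complex, Stxbp5, the tomosyn that holds syntaxin back from pairing, had 764.1, 709.1 and 935.2. Stxbp2, the Munc18 protein of non-neuronal secretory cells, was above the floor at 0.1 h alone, with 230.0, 355.8 and 81.3. Nsf itself was below the floor on all 3 arrays on both of its probe sets. Nsfl1c, a cofactor of the related ATPase Vcp, had 53423, 70225 and 38118 and was 1.84-fold lower at 1.0 h than at 0.1 h. A second one read 3379, 11074 and 7229, which is 1.71 higher on the log2 scale at 0.1 h than at 0.0 h, where the brightest gave 0.39. Both Nsfl1c probe sets were highest at 0.1 h and disagreed between 1.0 h and 0.0 h.

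Of 13 synaptotagmins, 3 were above the floor on all 3 arrays, where 2916 of all 4736 genes were. Another 4 were above it on 1 or 2 arrays and 6 on none, among them Syt1 and Syt2, the calcium sensors of fast synaptic release. Syt1 read 102.5, 182.8 and 67.5. A reading below the floor gives a bound and does not show that the transcript is absent.

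Syt3, a calcium-binding synaptotagmin, had 547.8, 923.6 and 436.2. Its only probe set was 2.12-fold lower at 1.0 h than at 0.1 h, with a log2 difference of -0.99 on the values as deposited. Syt4 had 454.1, 375.9 and 333.3, and Syt8 had 497.2, 451.6 and 588.7. Neither was 1.5-fold apart between any 2 arrays.

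Several synaptotagmins crossed the floor. Syt17 read 147.8, 742.4 and 151.2, above the floor at 0.1 h alone and at least 2.82-fold higher there than at 0.0 h. Syt5, of dense-core vesicles, read 109.9, 529.2 and 537.5. Against 0.0 h its bounds were 2.01-fold higher at 0.1 h and 2.04-fold higher at 1.0 h. Of 470 genes above the floor on 1 of the 0.1 h and 0.0 h arrays, 8.09% had a bound of at least 2-fold higher and 4.68% of at least 2-fold lower, and 7.01% of 442 did so for 1.0 h and 0.0 h. Syt11 and Syt6 were above the floor at 0.1 h alone, with 217.8, 449.4 and 95.6 for Syt11 and 82.9, 376.6 and 182.8 for Syt6. Of the 10 members above the floor on 1 of the 0.1 h and 0.0 h arrays, 8 were above it at 0.1 h. A bound of 2-fold was reached by Syt17 and Syt5. Over all 4736 genes, 3253 were above the floor at 0.1 h and 3203 at 0.0 h, and 2993 on both. Between 1.0 h and 0.1 h, Syt17 was at least 2.82-fold lower and Vamp1 at least 2.19-fold lower, and no member had a 2-fold bound the other way. Of 466 genes above the floor on 1 of these arrays, 6.87% had such a bound lower and 6.44% higher.

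Genes of the synaptic vesicle membrane differed in direction. Syn2, a synapsin that ties vesicles together, had 1982, 947.9 and 1868 and was 2.09-fold lower at 0.1 h than at 0.0 h and 1.97-fold higher at 1.0 h than at 0.1 h. Its other probe sets were below the floor at 0.0 h, with 31.4 and 7.1, and one of them read 322.8 at 0.1 h and 272.6 at 1.0 h. The low 0.1 h reading of Syn2 thus rests on 1 probe set. Syn1 had 331.8, 479.5 and 577.5 and was 1.74-fold higher at 1.0 h than at 0.0 h. Syn3 stayed under the floor with 161.2, 114.0 and 104.0, and Sv2c passed it at 1.0 h alone, with 221.1, 247.0 and 298.2.

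Sv2b, a transporter-like glycoprotein of secretory vesicles, had 29202, 23178 and 14706. It was 1.99-fold lower at 1.0 h than at 0.0 h, just inside the 2-fold line. The dimmer probe set read 792.1, 623.3 and 693.3, a log2 difference of -0.19, so the size of the difference depended on the probe set and its direction did not. Sv2a had 505.7, 623.5 and 510.7. Syp, the vesicle protein synaptophysin, had 10455, 15256 and 9755, highest at 0.1 h and 1.46-fold higher there than at 0.0 h.

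Complexins and priming proteins mostly lay near or below the floor on their probe sets. Of these 8 members, Cplx1 alone was above it on all 3 arrays, where 2916 of all 4736 genes were. Cplx1 had 351.0, 494.0 and 514.9 and was 1.47-fold higher at 1.0 h than at 0.0 h. Cplx2 read 288.3, 222.3 and 196.3, above the floor at 0.0 h alone. Unc13c, of the Munc13 priming family, read 265.5, 334.6 and 89.8, and Rph3al, a Rab3-binding protein of endocrine granules, 388.5, 245.6 and 339.5. Rims1, Rph3a, Unc13a and Unc13b were below the floor on all 3 arrays, between 15.9 and 218. Priming factors of active zones were thus little measurable at this signal.

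Rab proteins made up 31 of the members with the proteins named for binding them. Above the floor on all 3 arrays were 2916 of all 4736 genes and 24 of these 31. None was 2-fold apart between 0.1 h and 0.0 h or between 1.0 h and 0.0 h, and Rab12 was the 1 at least 2-fold apart between 1.0 h and 0.1 h. Between 0.1 h and 0.0 h, 16 of 24 were lower at 0.1 h, with a median log2 difference of -0.17, against 1506 of 2993 genes. With probe sets averaged 12 of 21 were lower, with a median of -0.10, and on second-brightest probe sets 5 of 6 were higher, with a median of 0.20. On 15 of the 24 the 0.1 h array was the lowest of the 3, for Rab3ip and Rab38 by only 1.003-fold and 1.002-fold. That count was 13 to 17 under the 4 other scalings, 9 of 21 with probe sets averaged and 1 of 6 on second-brightest probe sets. Over all genes measured on the 3 arrays the 0.1 h array was lowest for 36.8%, and for 63% when arrays were aligned on the spike-in controls.

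Rabs of secretory vesicles were few above the floor. Rab3a, the Rab of synaptic vesicles, read 17.6, 62.6 and 25.4, and Rab3d and Rab27a were below the floor on all 3 arrays as well. Rab3c had 3620, 4145 and 3904, and 946.4, 1043 and 985.3 on its other probe set, and Rab3b had 923.5, 904.5 and 727.1. Rab26, of secretory granules, had 726.3, 434.5 and 681.5 and was 1.67-fold lower at 0.1 h than at 0.0 h.

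Rabs between endoplasmic reticulum and Golgi included Rab6a, with 16709, 15225 and 23454, and Rab1a, with 558.6, 680.3 and 830.7. Rab1a was 1.49-fold higher and Rab6a 1.40-fold higher at 1.0 h than at 0.0 h. Rabac1, which binds prenylated Rabs, had 7231, 9828 and 5668 and was 1.73-fold lower at 1.0 h than at 0.1 h. Rab33b was nearly level with 1072, 927.8 and 1041, and Rab2a was below the floor with 52.8, 28.5 and 68.8.

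Rabs of endosomes and recycling had 6 of 8 measured members lower at 0.1 h than at 0.0 h, with a median log2 difference of -0.41, against 1506 lower of 2993 genes. With probe sets averaged 5 of 8 were lower, with a median of -0.12, and on second-brightest probe sets 1 of 3 was lower. Rab14, of the Golgi and early endosomes, had 1900, 1140 and 2066. Rab13, of tight junction and recycling traffic, had 801.0, 513.5 and 965.3. Rab14 and Rab13 were thus at least 1.56-fold lower at 0.1 h than on either other array. Rab11b, of recycling endosomes, had 23301, 15817 and 17972, while a dimmer probe set was level with 698.7, 714.3 and 681.3.

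Rab11a, its close relative, had 16555, 11319 and 13932, while its other probe sets read 3106, 3048 and 4565, and 1197, 1447 and 1408. The 3 Rab11a probe sets had log2 differences between -0.55 and 0.27 at 0.1 h against 0.0 h, so they do not agree in direction. Rab5a, the Rab of early endosomes, had 6203, 7623 and 8014, and Rab5b 7292, 8900 and 6225. Both Rab5a probe sets were lowest at 0.0 h. Rab4b read 444.0, 365.8 and 580.7, and Rab7a, of late endosomes, 373.6, 314.6 and 344.9. Rab15 was above the floor at 0.1 h alone, with 39.8, 325.9 and 112.7, and Rab4a on none, with 58.0, 25.7 and 70.8.

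Among the other Rabs, Rab12 had 439.6, 286.7 and 608.7 and was 2.12-fold higher at 1.0 h than at 0.1 h, where it lay near the floor. Rab10, which carries vesicles to the plasma membrane, had 14263, 24178 and 16199 and was 1.70-fold higher at 0.1 h than at 0.0 h. Its other probe set, with 7063, 8678 and 5220, was also highest at 0.1 h. Rab28 had 12205, 8178 and 10665 on its brightest probe set and 1522, 1815 and 1141 on the other, opposite in sign between 0.1 h and 0.0 h.

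Rab8a, of exocytic and ciliary traffic, had 377.3, 501.9 and 315.8, and Rab8b 432.5, 546.5 and 622.9. Rab34 had 2440, 1816 and 2629. Rab38, known from melanosomes, had 2060, 1940 and 1944, and Rab3ip, which activates Rab8, 685.7, 649.7 and 651.8. Rab11fip5, which binds Rab11, had 4204, 2692 and 3997. Rab3ip was level, as was the brightest Rab38 probe set. The other Rab38 probe set read 286.8, 208.5 and 49.5, below the floor at 0.1 h and 1.0 h. With probe sets averaged Rab38 was at least 2-fold lower at 1.0 h than on either other array. That difference came from the dim probe set. Rab34 and Rab11fip5 were lowest at 0.1 h, and Rab29 was below the floor throughout.

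**Figure D4:**
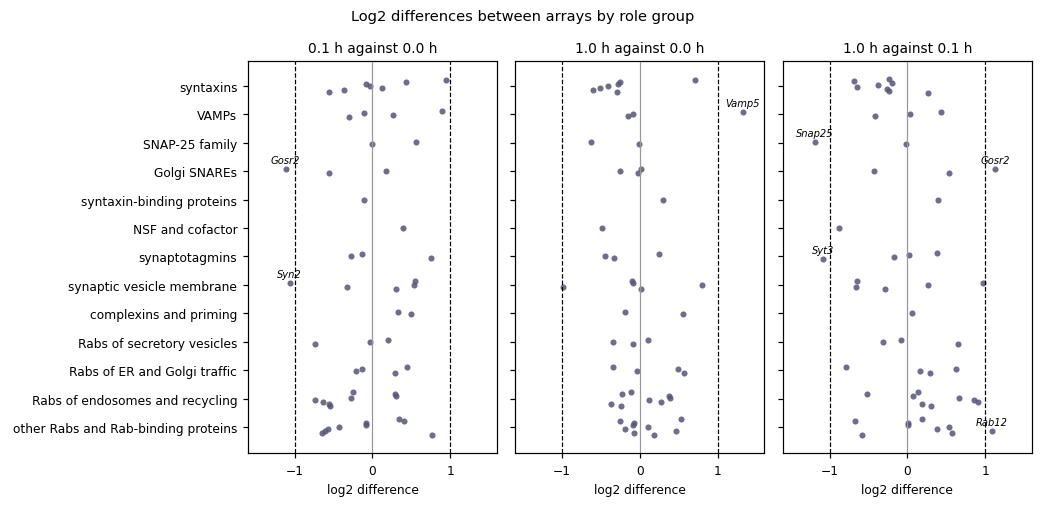
Log2 differences of the measured members in the 3 comparisons, 1 point a gene, by role group; dashed lines mark 2-fold differences and members beyond them are named. In the left panel Gosr2 and Syn2 lie beyond the lower line, in the middle panel Vamp5 lies beyond the upper line, and in the right panel 2 members lie beyond each.

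Where a member had 2 or more measured probe sets, the readings often disagreed. Between 0.1 h and 0.0 h the 2 brightest measured probe sets had the same sign for 8 of 12 members, with a median gap of 0.44 on the log2 scale. For all 724 genes with 2 measured probe sets the share was 65.5% and the median gap 0.34. Between 1.0 h and 0.0 h the signs agreed for 8 of 12 members and for 59.3% of 725 genes, and between 1.0 h and 0.1 h for 10 of 15 members and 63.4% of 756 genes. The largest gap for a member was 1.62, for Stx1a between 0.1 h and 0.0 h.

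Another 65 genes of vesicle traffic were on the array that the name rule does not take in, among them clathrin, dynamin, coat, Arf and exocyst genes. Between 0.1 h and 0.0 h, 53 were measured, with 1 at least 2-fold higher, 1 at least 2-fold lower and a median log2 difference of -0.07. Arf2, a small GTPase of Golgi coats, was the higher one, with 364.1, 1294 and 739.3 in label order. It was 3.55-fold higher at 0.1 h and 2.03-fold higher at 1.0 h than at 0.0 h. Scfd1, the Sec1-type partner of Stx5 between endoplasmic reticulum and Golgi, was the lower one, with 7203, 3422 and 5296, 2.10-fold lower at 0.1 h than at 0.0 h. Napa, which recruits Nsf to SNARE complexes, had 6222, 9413 and 5623. At 1.0 h, 1 of 54 was at least 2-fold higher than at 0.0 h and none lower, and between 1.0 h and 0.1 h none of 54 was 2-fold apart.

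Promoter sequences were read for the members from the RefSeq windows of the rat assembly GRCr8, of which 72 windows matched 71 members, and the 250 bases before each start were searched on both strands. Cyclic AMP is a main second messenger of the pineal gland, and its response element, TGACGTCA, was in 2 of the 72 windows, or 2.78%, against 2.31% of 4191 windows of all genes on the array. The AP-1 site, TGACTCA, was in 2 of 72, against 3.79%. The GC box, GGGCGG, was in 51 of 72, or 70.8%, against 52.5%. The members with a cyclic AMP response element are shown because this element is known from pineal gene control. At 1.0 h against 0.0 h, Syn1 was 1.74-fold higher and Vamp1 at least 2.70-fold lower. Capitals mark the element, which ends 64 bases before the Vamp1 start and 183 bases before the Syn1 start.
Syn1, chrX:3725509-3725608, plus strand: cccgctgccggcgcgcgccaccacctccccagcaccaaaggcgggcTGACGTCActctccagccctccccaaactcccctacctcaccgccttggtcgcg
Vamp1, chr4:159698777-159698876, plus strand: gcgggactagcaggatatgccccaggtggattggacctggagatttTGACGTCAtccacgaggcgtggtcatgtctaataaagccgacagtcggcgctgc

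The same letters thus stand in front of 2 genes whose readings differed in direction, and a match is no more than a description. The AP-1 sites were in the windows of Rab4b and Rab34. On their brightest probe sets both were lowest at 0.1 h, with 365.8 and 1816. The 0.1 h array was likewise lowest for 15 of 24 Rab genes measured on all 3 arrays, and for 36.8% of all such genes. The other probe set of each was below the floor throughout and lowest at 0.0 h.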

How the data were processed

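The members and lists were chosen with earlier results of these data known. The authors deposited linear intensity values; how they summarised probes, corrected background and with which software is not stated in the labels or files used here. In the deposited values the mean of each array without the highest and lowest 2% was 2503.7, 2503.9 and 2503.7, so the arrays had been scaled before deposit. Of 8799 probe sets, 59 controls were left out; 7006 had 1 symbol, 308 several, of which 2 held a symbol of the rule, and 1426 none in the platform annotation. All 83 members matched a RefSeq gene by ID, with 0 symbols changed.

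Intensities were taken to log2 and set to equal medians. A floor was set at the 40th percentile, and medians above the floor were then made equal, which shifted the arrays by 0.01, 0.04 and -0.05 in all. A gene was read from its brightest probe set by mean log2 value, which for 9 members is a _g_at set named for the same sequence record as an _at set. No test was possible with 1 array per label. A member was called at 2-fold; where it was above the floor on 1 array, the fold is a bound against the floor. Named were members at least 2-fold apart, the highest and lowest of each of 13 role groups and the 2 brightest of each; other members are described by their values. Alternatives were the deposited scaling, quantile normalisation, cyclic loess normalisation (limma 3.58.1, R 4.3.3), 9 spike-in probe sets made equal, floors at the 20th and 60th percentiles, the mean of all probe sets and the second-brightest one. The steps were tested on simulated data with changes well above 2-fold, planted in bright probe sets alone. Smaller differences and members near the floor were not tested that way. Python 3.11.15 was used.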

Additional observations from a re-analysis of the deposited data

How the results depend on the processing

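A median was taken as changed when it moved by more than 0.1 (log2), and a count when it moved by more than 1.5 times. When arrays were aligned on the 9 spike-in controls, the members' median log2 differences were -0.35 for 0.1 h against 0.0 h, 0.11 for 1.0 h against 0.0 h and 0.49 for 1.0 h against 0.1 h, while those of all genes were -0.28, 0.21 and 0.47. The counts were then 4 of 52 at least 2-fold lower in the first comparison, against 10.2% of 2993 genes. In the last comparison, where the median of all genes was itself 0.47, they were 11 higher and 0 lower. Averaging probe sets gave a median of 0.15 for 0.1 h against 0.0 h, with 1 of 45 higher (Nsfl1c) and 1 lower (Gosr2). The shares of all genes were 5.03% and 4.62%. For 1.0 h against 0.0 h it gave 0 higher and 1 lower (Rab38) of 44, against 2.36% and 2.62%. The Rab38 mean takes in a probe set below the floor at 0.1 h and 1.0 h. Second-brightest probe sets, over 12, 12 and 15 members, gave medians of 0.24, 0.018 and -0.10. For 0.1 h against 0.0 h 2 were higher and 0 lower, against 8.08% and 3.29% of 730 genes. For 1.0 h against 0.1 h the count was 0 either way. With the floor at the 20th percentile, 3 of 66 were higher for 0.1 h against 0.0 h, against 7.03% of all genes. For 1.0 h against 0.0 h 3 of 65 were higher and 4 lower, against 4.65% and 5.26%. For 1.0 h against 0.1 h 8 were lower, and the median was -0.10. A floor at the 60th percentile left 1 of 30 lower for 0.1 h against 0.0 h, against 4.41% of all genes. It left 0 of 33 higher for 1.0 h against 0.0 h, against 1.47%, and 0 higher and 1 lower for 1.0 h against 0.1 h. On the values as deposited, 1 was lower for 1.0 h against 0.1 h. For the 1.0 h against 0.1 h counts of this section no share of all genes is given. Those counts are therefore not read as a result about the members. A changed floor tests fewer or more genes, and of the other changes the cause was not tested. Gosr2 was at least 2-fold lower at 0.1 h than at 0.0 h in every alternative that measured it. No paired analysis was possible because there was 1 array per time label. Signal over the floor limits 33 members, which were below it on at least 1 array.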
